A study of Rattus norvegicus with 8 samples.

Results

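The Myc, Max and Mxd network is a family of transcription factor genes, and 9 of its genes were chosen by name: Myc, Mycn, Mycl, Max, Mxd1, Mxd3, Mxd4, Mxi1 and Mnt. Probe sets paired by the platform annotation with one of these genes alone measured 8 of the 9, among 14506 genes measured in all. Mycl was not paired with such a probe set and was not analysed here. A gene with several probe sets was represented by the brightest of them by its mean over the arrays. The samples were ventricular cardiomyocytes from newborn rats, cultured in dishes of 6 cm, a primary culture that is widely used to study growth of heart muscle cells. The control group (4 arrays) had received a scrambled precursor at 0.4 µM and the miR-222 group (4 arrays) a miR-222 precursor at the same dose, both by lipid transfection, and RNA was taken at 48 h. Because a scrambled RNA can act by its own sequence, each difference holds the effects of both precursors, and no untransfected cells were analysed here.

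Proteins of the Myc family bind DNA as pairs with Max, at a short motif called the E-box, and raise transcription of genes for growth, ribosomes and division. Mxd proteins, Mxi1 and Mnt also pair with Max, bind the same motif and hold transcription back through Sin3 corepressors, so that the makeup of the network sets which pairs form. In the heart, Myc is high in the growing fetal muscle, is low in the adult and is known to be induced by growth stimuli.

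The mature strand usually meant by the name miR-222 is shown first, because it is the RNA that set the groups apart. It lies at chrX:6022682-6022702 on the plus strand of the rat assembly GRCr8 (RefSeq), beside miR-221 at chrX:6023246-6023268 on the same strand. Of 724 mature rat miRNAs in that table, these 2 share the seed, bases 2 to 8, which is in capitals:
rno-miR-222-3p: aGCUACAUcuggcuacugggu
rno-miR-221-3p: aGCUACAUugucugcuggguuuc
The 2 strands carry the same seed and differ after it.

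The E-box CACGTG, which reads the same on both strands, was searched in RefSeq promoters of 300 bases, from 250 before to 50 after a gene's start. It was present in 6.65% of 27457 promoters (1826), and in 3 of the 6 measured network genes with a promoter in that table: Max, Mxd4 and Mnt. The stretches around it in these 3 genes are shown with the motif in capitals, 5′ to 3′ on the gene's strand, together with those of 5 of the 19 measured induced targets of Myc that held it. These 5 were picked by their outcome, as the 3 that fell, the 1 that rose and 1 of those that did not pass, and do not show how such genes respond. Srm, the spermidine synthase gene, Slc7a5, the light chain of an amino acid transporter, and Mcm2 of the replicative helicase fell. Atic, of purine synthesis, rose, and Cdk4, a kinase of the cell cycle, did not pass:
Max: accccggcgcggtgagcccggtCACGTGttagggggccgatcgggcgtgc
Mxd4: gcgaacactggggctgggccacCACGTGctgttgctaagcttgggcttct
Mnt: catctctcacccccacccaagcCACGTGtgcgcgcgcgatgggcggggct
Srm: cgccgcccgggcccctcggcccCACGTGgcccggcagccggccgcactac
Slc7a5: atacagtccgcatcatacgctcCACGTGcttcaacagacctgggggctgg
Mcm2: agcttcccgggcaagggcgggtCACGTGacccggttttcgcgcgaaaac
Atic: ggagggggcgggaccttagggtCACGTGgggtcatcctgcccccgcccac
Cdk4: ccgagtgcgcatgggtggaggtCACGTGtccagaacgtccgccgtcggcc
In GRCr8 they lie at chr6:101395296-101395345 (minus strand, Max), chr14:80786562-80786611 (plus, Mxd4), chr10:60197814-60197863 (plus, Mnt), chr5:164308807-164308856 (plus, Srm), chr19:66872564-66872613 (minus, Slc7a5), chr4:122918095-122918143 (minus, Mcm2), chr9:80614239-80614288 (plus, Atic) and chr7:64771336-64771385 (plus, Cdk4). The first base of the motif stood at position -33 from the gene's start in Max, -197 in Mxd4, -123 in Mnt, -173 in Srm, -179 in Slc7a5, -27 in Mcm2, -50 in Atic and -95 in Cdk4. The promoter of Atic holds 2 copies of the motif and that of Cdk4 holds 3. A match of these letters is a description and not a measured binding site.

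Expression values were deposited intensities, taken here as log2, and miR-222 was compared with control by limma across all probe sets with Benjamini-Hochberg adjusted p-values and a threshold of 0.05. Array medians lay from 7.66 to 7.77 log2 units, and pairs of arrays correlated at 0.989 to 0.993 inside a group and at 0.983 to 0.989 across groups. Of the 14506 genes 3580 changed (24.7%), 1692 higher (11.7%) and 1888 lower (13.0%), with a median difference of 0.01 over all genes. The microRNA's targets named by the study that paired with a probe set here, Hipk2, Hipk1 and Cdkn1b, were lower on every miR-222 array than on any control array. Groups did not overlap for 33.3% of all genes. The list of targets named by the study belongs to these samples and is no independent evidence. Precision is limited by the 4 arrays per group. The labels do not say whether they came from separate cultures, and the p-values therefore cover the spread between these samples alone, which may be technical.

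Myc and Mycn, the activators that were measured, both fell, beside 13.0% of all genes. Myc, the family member found in most dividing cells, stood at 9.11, 8.76, 8.88 and 9.0 log2 units on the 4 control arrays and at 8.46, 8.27, 8.32 and 8.54 on the 4 miR-222 arrays. All 4 miR-222 values lay below all 4 control values, and the nearest pair was 8.76 in control and 8.54 with miR-222. The difference was -0.54 on the log2 scale (SE 0.09, limma adjusted p = 0.00446), a 1.45-fold lower level. Mycn, the member best known from embryonic tissues and neuroblastoma and one that growing embryonic heart muscle needs, fell most among the measured network genes.

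Control values of Mycn were 8.26, 8.21, 8.36 and 8.11, and miR-222 values were 7.65, 7.41, 7.44 and 7.63. The groups did not overlap, and the gap between them was wider than the range of either group. The group means of Mycn were 8.23 ± 0.10 and 7.53 ± 0.12 (SD, n = 4 arrays), a difference of -0.70 (SE 0.08, limma adjusted p = 6.21e-04) or 1.62-fold. Every miR-222 value of Mycn was below the median of all probe sets, so the gene was dim there. Bulk RNA cannot tell fewer cells of a type from less RNA per cell. The summed intensity of 11 fibroblast markers was also lower on the miR-222 arrays, at 10673 to 12113 against 13364 to 14651 in control. Of these 11 markers 5 fell and 6 did not pass, 45.5% called beside 24.7% of all genes. The sums of the cardiomyocyte, smooth muscle and endothelial markers were lower too, and that of the macrophage and leukocyte markers overlapped. A sum follows its brightest genes, and 8 of 12 cardiomyocyte, 5 of 7 smooth muscle and 6 of 7 endothelial markers did not pass. The part of these differences in the values of Myc and Mycn was not tested.

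Max, the shared partner of all the other members, was the only measured member that rose. Its brightest probe set measured 10.82, 10.79, 10.88 and 10.83 log2 units in control and 11.24, 11.10, 11.33 and 11.20 with miR-222, so the groups did not overlap. The difference was 0.39 (SE 0.06, limma adjusted p = 0.00212), a 1.31-fold higher level. A second probe set paired with Max alone gave 10.03, 9.98, 10.05 and 9.94 in control and 10.40, 10.32, 10.54 and 10.32 with miR-222. That probe set also differed by 0.39 (SE 0.06, limma adjusted p = 0.00289), and on both probe sets miR-222 replicate 3 was the highest array. The 2 probe sets share an annotated transcript and were read on the same arrays, so they are not independent measurements.

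**Figure D1:**
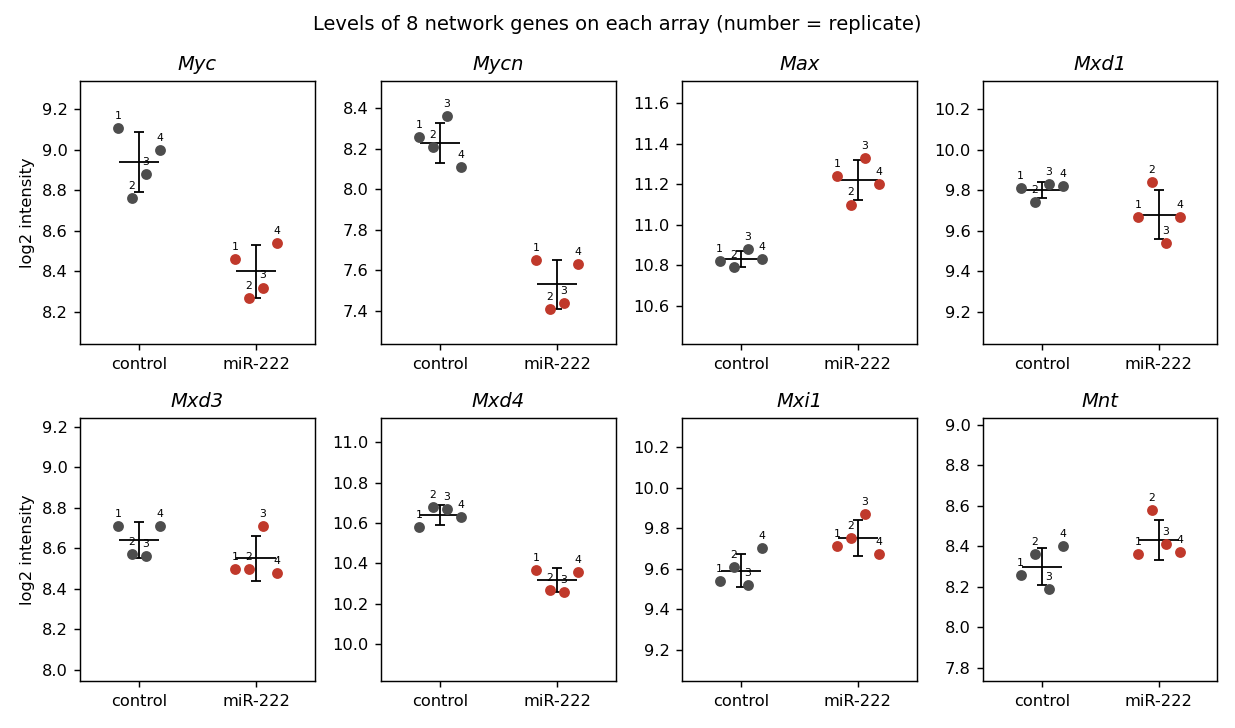
Level of each measured network gene on each array, in log2 intensity on axes of equal span; each point is 1 array with its replicate number, and bars give the group mean and SD (n = 4). The 2 groups are apart for Myc, Mycn, Max and Mxd4, and they overlap for Mxd1, Mxd3, Mxi1 and Mnt.

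Of the 5 antagonists of Myc in the network, Mxd4 fell and the other 4 did not pass the threshold. Of all genes 13.0% fell and 24.7% were called either way, and the count of antagonists lies near these shares. Mxd4, a repressor known to be expressed in many differentiated tissues, measured 10.58, 10.68, 10.67 and 10.63 log2 units in control and 10.37, 10.27, 10.26 and 10.36 with miR-222. The groups did not overlap, and both were tight, with an SD of 0.05 and 0.06. The difference was -0.32 (SE 0.05, limma adjusted p = 0.00225), which is 1.25-fold lower.

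Mxi1, known as an inducible antagonist of Myc, measured 9.54, 9.61, 9.52 and 9.70 in control and 9.71, 9.75, 9.87 and 9.67 with miR-222. The lowest miR-222 value lay under the highest control value, and the difference of 0.16 (SE 0.06) did not pass (limma adjusted p = 0.118). The other 2 probe sets of Mxi1 gave 0.16 (SE 0.06, limma adjusted p = 0.107) and 0.14 (SE 0.07, limma adjusted p = 0.194). All 3 probe sets are annotated to the same transcripts and moved alike across the arrays, so they are not independent measurements. In an exact permutation test over the 70 splits of the 8 arrays, 2-sided, Mxi1 had p = 0.0571, where the smallest p possible is 0.0286.

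Mnt, the antagonist known to be present in resting and dividing cells alike, measured 8.26, 8.36, 8.19 and 8.40 in control and 8.36, 8.58, 8.41 and 8.37 with miR-222. The ranges overlapped, and the difference was 0.13 (SE 0.07, limma adjusted p = 0.246). Mxd1, which is known to rise as cells leave the cycle and differentiate, measured 9.81, 9.74, 9.83 and 9.82 in control and 9.67, 9.84, 9.54 and 9.67 with miR-222. On 3 of the 4 miR-222 arrays Mxd1 was below every control array, and on miR-222 replicate 2 it was above them all, with a difference of -0.12 (SE 0.07, limma adjusted p = 0.262).

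Mxd3, known from cells in S phase, measured 8.71, 8.57, 8.56 and 8.71 in control and 8.50, 8.50, 8.71 and 8.48 with miR-222. The 3 miR-222 arrays other than replicate 3 lay below every control array, whereas replicate 3 stood at the level of the highest control arrays. The difference was -0.09 (SE 0.07, limma adjusted p = 0.443), and without miR-222 replicate 3 it was -0.14 (limma adjusted p = 0.149). A p above the threshold does not show that these 4 genes were equal in both groups.

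Counted over the network, Myc, Mycn and Mxd4 fell (3 of 8), Max rose (1 of 8) and 4 genes were not past the threshold. The share of 50% called stands beside 24.7% of all genes, and the median of the members' differences was -0.10 beside 0.01 over all genes. The 24.7% covers dim genes too, whereas the members were on average brighter than 53.0% (Mycn) to 90.0% (Max) of probe sets. With dim probe sets left out, 4256 of 9983 genes were called, and the members were again 3 lower and 1 higher of 8. Shares of the lists below also stand beside all genes, and the part of brightness in them was not tested. The 4 values of each group did not overlap for 4 of 8 members, beside 33.3% of all genes. In order from lowest to highest difference the members ran Mycn, Myc, Mxd4, Mxd1, Mxd3, Mnt, Mxi1 and Max. Neighbours in the middle of that order, Mxd1 and Mxd3 as well as Mnt and Mxi1, lay within their standard errors of each other.

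**Figure D2:**
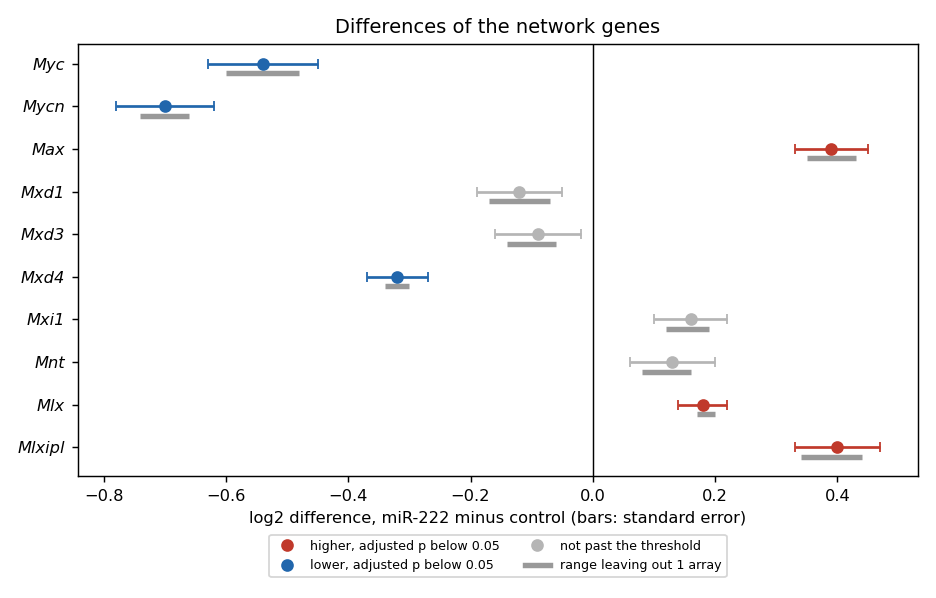
Log2 difference of miR-222 minus control for each measured network gene and for Mlx and Mlxipl of the wider network, with the standard error of the limma fit; the grey bar below each point spans the 8 values obtained when 1 array was left out. Myc, Mycn and Mxd4 lie below 0 and Max, Mlx and Mlxipl above it with an adjusted p below 0.05, and no grey bar reaches 0.

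The calls of these 4 members did not rest on 1 array. When each array was left out in turn, Mycn stayed between -0.74 and -0.66, Myc between -0.60 and -0.48, Mxd4 between -0.34 and -0.30 and Max between 0.35 and 0.43. Over these fits and the other alternatives the highest adjusted p was 0.00368 for Mycn, 0.0163 for Myc, 0.0097 for Mxd4 and 0.00995 for Max, all from limma. The exact permutation test gave each of the 4 genes the smallest p that it allows, 0.0286, without adjustment. That value follows from groups that do not overlap, as in 33.3% of all genes, and adds nothing to it.

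The arrays of a group did not order alike across the members. Of the 4 miR-222 arrays, replicate 3 was highest for Max, Mxi1 and Mxd3 and lowest for Mxd1 and Mxd4, while replicate 2 was lowest for Myc, Mycn and Max and highest for Mxd1 and Mnt. Myc and Mycn were both higher on miR-222 replicates 1 and 4 than on replicates 2 and 3.

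Genes outside the network were compared with the 4 called members by the root mean square difference of their mean-centred log2 profiles over the 8 arrays, as a description. The nearest to Myc were Tmem41b, Colq and Ccp110, each at 0.08 log2 units, and the nearest to Mycn were Gca, Rfc2 and Casp8ap2, each at 0.06. Rfc2, a subunit of the clamp loader of DNA replication, differed by -0.72 (SE 0.07) and Ccp110, a protein of the centriole, by -0.52 (SE 0.09). Ttc39b at 0.02, Anks1a at 0.03 and Me3 at 0.03, the last a mitochondrial malic enzyme gene, were nearest to Max. Bzw1, Tug1 and Ndufa11, each at 0.03, were nearest to Mxd4. These 12 genes were chosen by their likeness to called members on the same arrays, so their own differences are no further result.

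The wider network joins Mlx, a relative of Max, with the glucose-sensing factors Mlxip and Mlxipl, the latter known as ChREBP. Both genes of this branch that were measured rose, beside 11.7% of all genes, and 1 of the 2 did with median centring. Mlxipl lay at 7.76 to 7.89 in control and at 8.11 to 8.42 with miR-222, a difference of 0.40 (SE 0.07, limma adjusted p = 0.00553). Mlx lay at 10.30 to 10.35 in control and at 10.46 to 10.55 with miR-222, a difference of 0.18 (SE 0.04, limma adjusted p = 0.0132), and lost its call when arrays were centred on their medians (adjusted p = 0.0854). The groups did not overlap for either gene, beside 33.3% of all genes. The promoter of Mlx held the E-box.

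Among 8 measured genes known as targets of these glucose-sensing factors, 1 fell and 7 did not pass, 12.5% called beside 24.7% of all genes, with a median of 0.03. Fasn, which encodes fatty acid synthase, fell by 0.33 on the log2 scale (SE 0.07, limma adjusted p = 0.0122). Txnip, a thioredoxin-binding protein gene known as the most sensitive of these targets and named here after its values were seen, measured 12.26, 12.32, 12.25 and 12.04 in control and 12.05, 10.90, 11.80 and 11.94 with miR-222. The spread came from miR-222 replicate 2, and the difference of -0.55 (SE 0.24) did not pass (limma adjusted p = 0.159).

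Myc acts through histone acetyltransferases, chromatin remodellers and the elongation kinase. Of 15 measured cofactors 3 rose and 2 fell, 33.3% beside 24.7% of all genes, with a median of 0.08. Cdk9, the kinase that releases paused polymerase, had group means of 10.24 ± 0.04 and 10.66 ± 0.04 (SD, n = 4 arrays) and rose by 0.42 (SE 0.04, limma adjusted p = 3.96e-04). Its cyclin gene Ccnt1 rose by 0.21 (SE 0.05), which did not pass when control 2, control 4 or miR-222 replicate 4 was left out (limma adjusted p up to 0.0591) or with median centring (adjusted p = 0.086). The acetyltransferase gene Kat2a rose by 0.28 (SE 0.05, limma adjusted p = 0.00527), the remodeller subunit gene Actl6a fell by 0.32 (SE 0.05, limma adjusted p = 0.00412) and the chromatin-linked cofactor gene Hcfc1 fell by 0.21 (SE 0.05, limma adjusted p = 0.0161).

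The corepressors through which Mxd proteins and Mnt act were called in 12.5% of cases beside 24.7% of all genes. Of 8 measured genes 1 fell and 7 did not pass, with a median of -0.02 and a range of -0.16 to 0.17. The groups did not overlap for 5 of the 8, beside 33.3% of all genes. Rbbp7, a histone-binding subunit of deacetylase complexes, was the gene that fell, by 0.16 (SE 0.03, limma adjusted p = 0.013). Without miR-222 replicate 2 there were 2 lower genes and 1 higher. With dim probe sets left out 3 were higher and 2 lower, and 2 were higher and 2 lower both with a variance trend and with only probe sets of 1 gene fitted, so the count depends on the fit.

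Myc is a short-lived protein, and genes for its turnover went both ways. Of 13 measured genes 5 rose and 2 fell, 53.8% beside 24.7% of all genes, with a median of 0.06. The list holds factors that remove Myc and factors that stabilise it. Trim32, a ubiquitin ligase reported to act on Myc, measured 8.54 to 8.65 in control and 8.15 to 8.21 with miR-222 and fell by 0.43 (SE 0.04, limma adjusted p = 3.22e-04). Skp2, the F-box protein that marks both Myc and p27, fell by 0.41 (SE 0.06, limma adjusted p = 0.00323).

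Fbxo32, the muscle F-box protein atrogin-1, rose by 0.46 (SE 0.06, limma adjusted p = 0.00147), and Usp28, a deubiquitinase known to protect Myc, by 0.35 (SE 0.05, limma adjusted p = 0.00157). Pim1, a kinase known to stabilise Myc, rose by 0.52 (SE 0.11), the scaffold gene Axin1 by 0.22 (SE 0.04) and the phosphatase subunit gene Ppp2r5a by 0.26 (SE 0.06). The call of Ppp2r5a did not hold when control 2, control 3 or miR-222 replicate 4 was left out (limma adjusted p up to 0.0556).

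Genes that act on Myc transcription or on its mRNA went both ways, with 4 of 18 measured genes higher, 3 lower and a median of -0.07. The share called was 38.9% beside 24.7% of all genes. Ctnnb1, which encodes beta-catenin, an activator of Myc transcription, lay at 11.44 to 11.50 in control and at 11.79 to 11.82 with miR-222, a rise of 0.33 (SE 0.04, limma adjusted p = 6.19e-04). Zfp36l1, a protein that binds AU-rich mRNA and speeds its decay, rose by 0.41 (SE 0.08, limma adjusted p = 0.00882). Its relative Zfp36 fell by 0.36 (SE 0.09, limma adjusted p = 0.0253). Fubp1, which binds an element upstream of Myc, fell by 0.22 (SE 0.05) and Hnrnpd, another AU-rich element binding protein, by 0.21 (SE 0.04).

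The remaining 2 genes of that list that rose were Tcf7l1 at 0.20 (SE 0.05) and Stat3 at 0.13 (SE 0.04). The count of 4 higher genes was 2 without control replicate 2 or miR-222 replicate 4, when arrays were centred on their medians, or when probe sets of a gene were averaged. Tcf7l1 was lost in these fits (limma adjusted p up to 0.0987), Stat3 in the latter 2 fits (limma adjusted p up to 0.217) and when any array other than miR-222 replicate 2 was left out (limma adjusted p up to 0.115). Zfp36 kept its call when control 3 or miR-222 replicate 2 was left out and lost it when any other array was (limma adjusted p up to 0.0683).

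**Figure D3:**
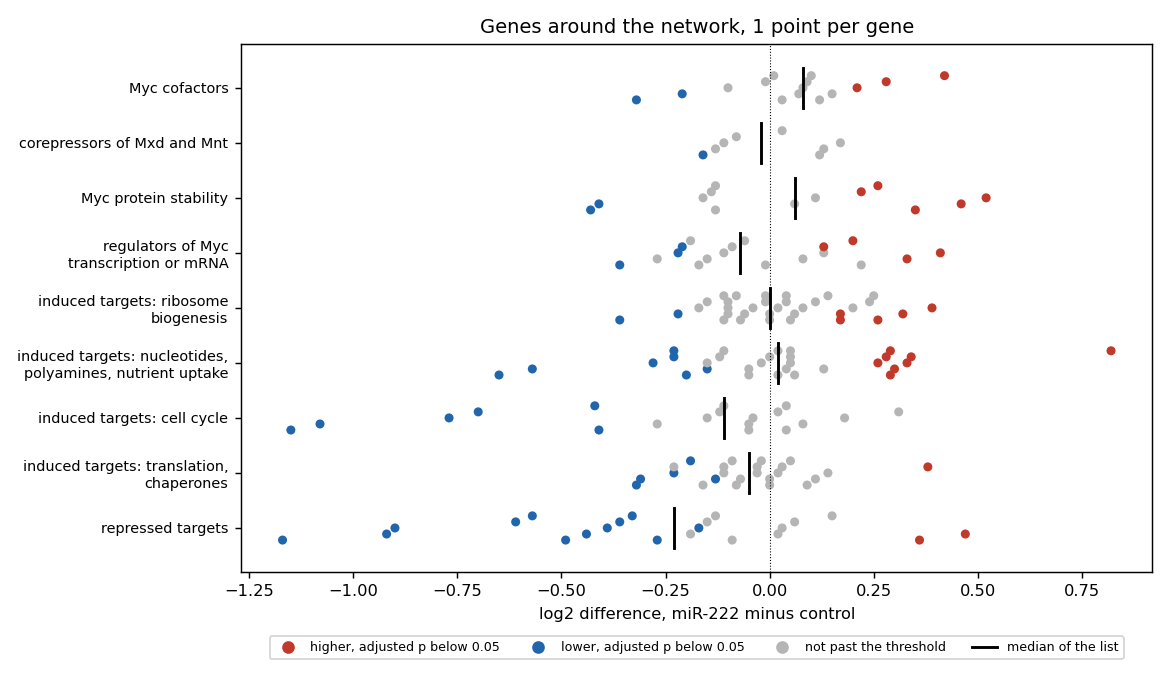
Log2 difference of miR-222 minus control for the measured genes of 9 lists around the network, 1 point per gene, with the list's median as a black line; the vertical position within a list only separates points. Red and blue points passed the threshold, and the medians run from -0.23 for the repressed targets to 0.08 for the cofactors.

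Genes known to be induced by Myc were read in 4 lists with 106 measured genes together, of which 14 rose, 20 fell and 72 did not pass. The share called was 32.1% beside 24.7% of all genes, and the median was -0.02 beside 0.01. Ribosome biogenesis, the best known output of Myc, had 5 of 33 genes higher and 2 lower, 21.2% beside 24.7% of all genes, with a median of 0.00. Nolc1, a nucleolar chaperone gene, fell by 0.36 (SE 0.06, limma adjusted p = 0.00295), Nop56 of the methylation guide complex fell by 0.22 (SE 0.05), and the processing factor genes Imp4 and Bop1 rose by 0.39 (SE 0.05) and 0.26 (SE 0.05). Mrto4 at 0.32 (SE 0.07), the helicase gene Ddx21 at 0.17 (SE 0.04) and Tcof1 at 0.17 (SE 0.05) completed the genes that rose.

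Tcof1 was lost without any single array (limma adjusted p up to 0.106), and Ddx21 with median centring (adjusted p = 0.0719), where the list had 3 higher genes. The nucleolar genes Npm1 and Ncl, named after their values were seen because they are classical Myc targets, measured -0.01 (SE 0.04, limma adjusted p = 0.946) and 0.08 (SE 0.04, limma adjusted p = 0.17).

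Genes for nucleotides, polyamines and nutrient uptake changed in both directions, with 8 of 30 measured genes higher and 7 lower. The share called was 50% beside 24.7% of all genes, and the median was 0.02. With 1 array left out 6 to 8 genes were higher and 5 to 6 lower. Umps, Paics, Prps2 and Slc2a1 each lost their call in some of those fits (limma adjusted p up to 0.116). Srm measured 10.93, 10.98, 10.99 and 10.93 in control and 10.34, 10.39, 10.23 and 10.27 with miR-222. The groups lay far apart beside their spread, at a difference of -0.65 (SE 0.05, limma adjusted p = 1.15e-04) or 1.57-fold. Slc7a5 measured 10.47, 10.45, 10.46 and 10.38 in control and 9.74, 10.00, 9.92 and 9.82 with miR-222, a fall of 0.57 (SE 0.06, limma adjusted p = 5.93e-04). Phgdh, the entry enzyme of serine synthesis, rose by 0.29 (SE 0.04, limma adjusted p = 0.00261), and Ppat, that of purine synthesis, by 0.33 (SE 0.05, limma adjusted p = 0.00272).

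Of 19 measured cell cycle targets 6 fell and 13 did not pass, 31.6% beside 13.0% of all genes lower and 24.7% called either way, with a median of -0.11. Ccnd1, the gene for cyclin D1, fell by 1.08 (SE 0.05) and the helicase genes Mcm2, Mcm5 and Mcm7 by 0.70 (SE 0.08), 1.15 (SE 0.16) and 0.77 (SE 0.12), the highest limma adjusted p of the 4 being 0.00283. Mcm2, whose E-box is shown above, measured 10.28, 10.07, 10.33 and 10.18 in control and 9.51, 9.62, 9.34 and 9.58 with miR-222. Its groups did not overlap. Skp2, already counted among the Myc turnover genes, and Pcna at -0.42 (SE 0.11) completed the genes that fell. Pcna kept its call only when control replicate 2 or miR-222 replicate 4 was the array left out (limma adjusted p otherwise up to 0.0908). Cdk4, named after its values were seen, measured 0.02 (SE 0.04, limma adjusted p = 0.776).

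In translation and chaperones 5 of 24 measured genes fell and 1 rose, with a median of -0.05. The share of 25% called was close to the 24.7% of all genes. Prmt5, a methyltransferase gene, fell by 0.32 (SE 0.04, limma adjusted p = 0.0015), the asparagine tRNA synthetase gene Nars1 by 0.31 (SE 0.05) and the initiation helicase gene Eif4a1 by 0.23 (SE 0.04). Polrmt, the mitochondrial RNA polymerase gene, rose by 0.38 (SE 0.07, limma adjusted p = 0.00792). Aimp2 at -0.19 (SE 0.04) and the chaperonin gene Hspd1 at -0.13 (SE 0.04) completed the genes that fell. Leaving out control replicate 1, 3 or 4, or miR-222 replicate 4, took the count from 5 to 3. Those fits lost Aimp2 (limma adjusted p up to 0.0723), and Hspd1 was lost without any single array (limma adjusted p up to 0.12), with quantile normalization (adjusted p = 0.0791) and with median centring (adjusted p = 0.0775).

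Genes known to be repressed by Myc were more often lower than higher, with 12 of 22 measured genes lower, 2 higher and 8 not past the threshold. With 1 array left out the lower genes numbered 8 to 14. Cdkn2b, Gadd45g, Klf4 and Vcam1 each lost their call in some of those fits (limma adjusted p up to 0.0636). The share of 63.6% stands beside 24.7% of all genes and the median of -0.23 beside 0.01. Thbs1, the gene of the matrix protein thrombospondin, fell by 0.90 (SE 0.06, limma adjusted p = 9.53e-05), the stress gene Gadd45a by 0.44 (SE 0.04, limma adjusted p = 3.77e-04) and Cdkn1b, a target named by the study, by 0.39 (SE 0.04, limma adjusted p = 2.69e-04). Cdkn1a, the gene of the cell cycle inhibitor p21, rose by 0.47 (SE 0.04, limma adjusted p = 3.17e-04). Cdkn1c at 0.36 (SE 0.10) also rose, and kept its call only when control replicate 2 was the array left out (limma adjusted p otherwise up to 0.104). This list shares matrix and adhesion genes with fibroblasts. Of 11 fibroblast markers 5 were lower on the same arrays and 6 did not pass, 45.5% called beside 24.7% of all genes. Col1a2, which is in both lists, did not pass at -0.15 (SE 0.06, limma adjusted p = 0.107). The part of fibroblasts in this count was not tested.

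The promoter motif was read against the same comparison. Of the measured genes 11950 had a promoter in the RefSeq table, and 942 of these (7.88%) held the E-box. The share with the E-box was 19.8% of 96 promoters of the 4 induced lists together and 27.8% of 18 promoters of the repressed list. Among the 942 genes with the motif 16.5% rose and 14.3% fell, and among the 11008 genes without it 11.4% rose and 13% fell. The median difference was 0.03 with the motif and 0.01 without it. Genes with the motif were also brighter, at a median level of 9.31 log2 units against 8.39, and the part of brightness in these shares was not tested. Of the 19 induced targets with the motif 3 fell and 1 rose, and of the 77 without it 15 fell and 12 rose.

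**Figure D4:**
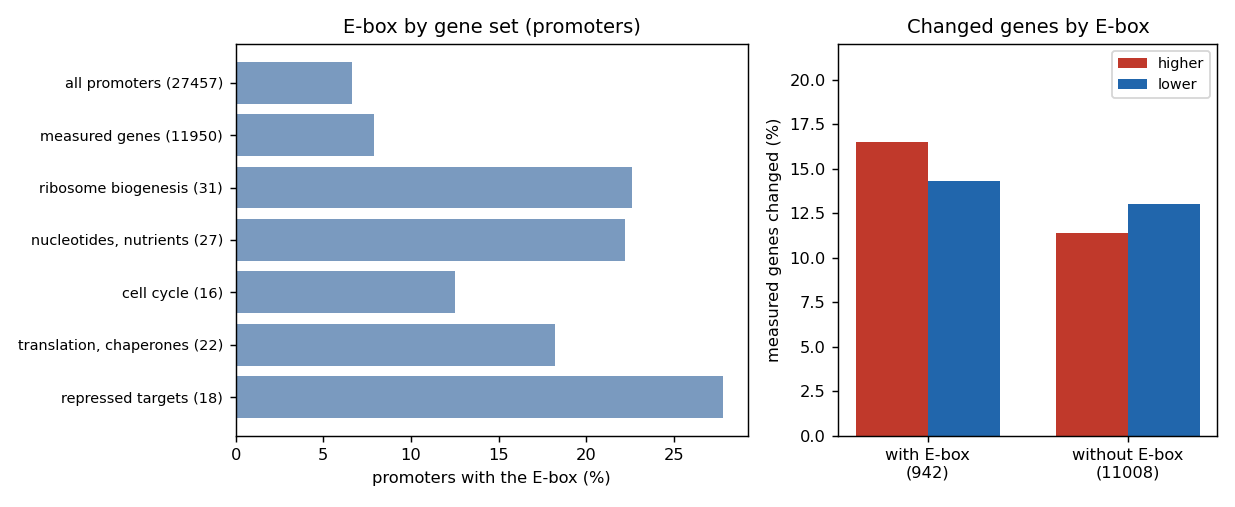
Left, percent of RefSeq promoters that hold the E-box for all genes, for measured genes and for 5 lists of Myc targets, with the number of promoters in brackets; right, percent of measured genes that were higher or lower with miR-222, by presence of the E-box. The motif stood in 6.65% of all promoters and in 12.5% to 27.8% of the promoters of the target lists, and genes with it were called higher in 16.5% of cases against 11.4% without it.

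Markers of 5 cell types were read in the same comparison, where 24.7% of all genes were called. The share called was 33.3% of the cardiomyocyte, 45.5% of the fibroblast, 28.6% of the smooth muscle, 14.3% of the endothelial and 11.1% of the macrophage and leukocyte markers. Of 12 cardiomyocyte markers Myh7, Ttn and Ryr2 fell and Nkx2-5 rose, and the summed intensity of the list was 109274 to 112092 in control and 101824 to 103878 with miR-222. Ryr2 lost its call when any array other than miR-222 replicate 2 was left out (limma adjusted p up to 0.112), and Nkx2-5 when any other than miR-222 replicate 1 was (limma adjusted p up to 0.0943) and with median centring (adjusted p = 0.169). Of 11 fibroblast markers 5 fell, Fn1, Thy1, Lum, Postn and Ddr2, and leaving out control 3, control 4 or miR-222 replicate 1 took the count to 3.

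The smooth muscle list summed to 27431 to 27635 in control and 22442 to 25350 with miR-222, with Tagln and Cspg4 the 2 of 7 that fell. The endothelial list summed to 1963 to 2150 and 1378 to 1512, with Kdr the 1 of 7 that fell. Kdr differed by -1.51 (SE 0.09) and was the brightest of the list in control, so it weighed most in that sum. The other 6 did not pass and ran from -0.13 (Cdh5) to 0.04 (Pecam1 and Tie1). The macrophage and leukocyte list summed to 1006 to 1035 and 1023 to 1116, with C1qa the 1 of 9 that rose, with a call that held only when control replicate 4 was the array left out (limma adjusted p otherwise up to 0.118). No marker was at 0 on any array, and the dimmest value was 5.42 log2 units, of Ptprc. The part of these cell types in the differences of Myc, Mycn, Max, Mxd4 and the target lists was not tested.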

How the data were processed

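The authors deposited 1 table of linear intensity values for 29170 probe sets on 8 arrays, processed by a method not given in the sources used here. The series text names one Affymetrix rat array, but the table's identifiers match the annotation of another, Rat Gene ST, which gave the gene names. One gene was paired with 15310 probe sets, several genes with 323 and no gene with 13537. Values were taken as log2 without a pseudocount, fitted with limma 3.58.1 (lmFit, eBayes) in R 4.3.3 and adjusted over all probe sets, after a check on simulated data. Figures used matplotlib 3.10.9. Replicates are numbered in listed order.

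Members, 12 further gene lists and 5 marker lists were chosen with earlier results of these data known. Named genes were the members, up to 4 called genes of each list with the smallest p (2 where none was called), and the 3 nearest to each called member. Any other gene was picked with its values in view, mostly to complete a count of 5 or fewer. E-boxes were searched at the first start that the RefSeq table (GRCr8) lists for a gene. Alternatives changed scaling, pseudocount, filter, probe sets, variance model, weights and arrays.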

Additional observations from a re-analysis of the deposited data

Results flagged for a closer look

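Single arrays stood apart from the other 3 of their group, by Dixon's test at its 95% limit, in 11 of 248 groups of 4 arrays, where chance gives about 1 in 20. Among the network genes this was Mxd3 on miR-222 replicate 3, at 8.71 log2 units against 8.48 to 8.50 on the other 3 arrays. Replicate 3 of miR-222 also stood apart for Kat2a (9.16 against 9.09 to 9.10), Klf6 (9.16 against 9.54 to 9.60) and Ccn1 (10.39 against 10.93 to 10.95), the latter 2 being repressed targets. On miR-222 replicate 2 it was Zfp36, at 10.02 against 9.64 to 9.67. Among control arrays replicate 1 stood apart for Fasn (10.90 against 10.84 to 10.85) and Gart (9.90 against 9.82 to 9.83), and replicate 3 for Mcm5 (9.39 against 9.13 to 9.17) and Me3 (9.59 against 9.51 to 9.52). Control replicate 2 stood apart for Nolc1 (10.15 against 10.23) and for the mean centred level of the ribosome biogenesis list (-0.07 against 0.00 to 0.01).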

How the results depend on the processing

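The 3 network genes that fell, the 1 that rose and the 4 that did not pass kept their direction and their side of the threshold in all 16 alternative fits. They also kept their side in the exact permutation test, whose p is not adjusted. The count of changed genes was 2686 to 3404 of 14506 with 1 array left out, 4256 of 9983 with dim probe sets left out and 3053 to 4264 of 14506 under the other alternatives. The share of calls that were higher was 47.3%, and 39.0% with median centring. Counts of the other lists were more open: 508 of 576 recomputed counts stayed within 1.5 times, and 68 did not. With dim probe sets left out, lower genes numbered 2 among corepressors (1 in the reported fit), 4 among Myc turnover genes (2), 6 among regulators of Myc (3), 4 in ribosome biogenesis (2) and 9 in translation (5). With a variance trend they numbered 2, 5 and 6 in the first 3 of these lists and 9 in translation, and 6 cardiomyocyte markers were lower (3). With only probe sets of 1 gene fitted they numbered 2, 4, 5 and 4 in the first 4 lists, and with array weights 2 among corepressors and 6 among regulators. Higher corepressor genes numbered 1 to 3 in 7 of the 8 alternatives that kept all arrays. No paired analysis was possible because the labels give no replicate numbers. Detection calls were not used here, so dim levels may lie near background.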

Other observations

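Among the metabolic targets, the 3 enzymes that make serine from glycolysis all rose, beside 11.7% of all genes. This grouping was picked with the values in view, and no list test was run. The list it came from had 8 of 30 measured genes higher and 7 lower. Phgdh lay at 9.42 to 9.51 log2 units in control and at 9.69 to 9.81 with miR-222. Psat1 lay at 9.47 to 9.58 and 9.75 to 9.97 in the same order, and Psph at 9.55 to 9.68 and 9.84 to 9.97. The groups did not overlap for any of the 3, beside 33.3% of all genes. The log2 differences were 0.29 (SE 0.04), 0.34 (SE 0.06) and 0.30 (SE 0.05), with limma adjusted p from 0.00261 to 0.00495. Enzymes that take one-carbon units from serine did not pass, with Shmt1 at -0.02 and Shmt2 at 0.05. Mthfd2, which acts on those units, did not pass either, at -0.05. In purine synthesis Ppat and Atic rose, by 0.33 and 0.26, whereas Gart fell by 0.28 and Paics by 0.15. Paics kept its call when miR-222 replicate 2 or 3 was left out and lost it when any other array was (limma adjusted p up to 0.0769).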
